A study of Danio rerio with 2 samples.

Results

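The most abundant transcripts of wildtype zebrafish larvae (Danio rerio) were 184 RefSeq gene IDs of the 10223 with a gene value. The 200 IDs with the highest wildtype gene value were taken, and the 16 whose mutant value was at or below 0.5 of the wildtype value were left out. Both steps used the measured gene values, so levels and mutant to wildtype ratios of these IDs are given as a description and were not tested. A symbol was found for 180 of the 184 IDs, which covered 178 distinct symbols, because tnnt3b and ybx1 each had a pair of IDs.

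Whole larvae were compared at 108 hours post-fertilization (hpf), with 1 library of homozygous wildtype larvae and 1 library of larvae homozygous for the clbns841 allele, called clbn (caliban). About 60 larvae, genotyped one by one, were pooled for each library. Larvae of both genotypes were raised at 28.5 °C and held from 24 hpf in 0.003% 1-phenyl-2-thiourea (PTU), which blocks pigment. Poly(A) RNA from 2 rounds of selection was fragmented with RNase III, amplified over 18 cycles and sequenced on the SOLiD platform. The study title describes the mutant as deficient in U12-type splicing. With 1 pool per genotype there was no replicate error anywhere, so any test speaks for this pair of pools, not for each genotype. Intervals of ratios cover counting error only. Those of medians reflect the spread among IDs or introns within the same libraries, and include neither replicate error nor the choice of scaling.

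A growing larva spends much of its messenger RNA on the translation machinery and on proteins that fill whole tissues, such as contractile proteins of muscle, keratins of skin, crystallins of the lens and opsins of photoreceptors. Introns are removed from nearly all of these transcripts before the RNA is exported. Most introns are removed by the major spliceosome and a rare class, the U12-type, by the minor one, and rnpc3, the gene known to carry the caliban mutation, encodes a protein of the minor spliceosome. Reads that remain in an intron give a measure of its retention.

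The gene value used below is reads scaled by kilobases of unique exonic sequence and by library size, in the manner of an RPKM. Gene reads and unique lengths were recovered from the values as the smallest whole numbers that fit. They are lower limits, since both can be too low by a common factor, and intervals are then too wide. Recovered from the table, the library sizes came to 28309779 (wildtype) and 25718058 (mutant) reads, and listed introns took up 6.97% and 7.06% of them. Gene values of 26 of 34 marker genes for 11 tissues could be looked up, and they lay between 12.4, for the heart marker myl7, and 10667 in wildtype. The value of rnpc3 was 5.70 in wildtype and 2.503 in the mutant, from 273 and 109 reads, a ratio of 0.440 (95% interval 0.349 to 0.551). Fewer cells of a type and less RNA per cell cannot be told apart in whole larvae.

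The 184 transcripts made up 51.1% of the summed gene values of all IDs in wildtype and 53.3% in the mutant. Without the ratio limit the order was the reverse, with 55.9% and 55.0% for all 200 IDs. The 16 left out held 4.80% and 1.68%. Wildtype values of the 184 ran from 388 to 10667 with a median of 822, and mutant values from 215 to 11017 with a median of 848. The mutant value was higher for 121 and lower for 63 of them. The median log2 ratio was 0.04 (interval over IDs 0.03 to 0.07), beside 0.05 over all 10175 IDs with at least 20 recovered reads. A ratio between 0.8 and 1.25 was found for 160 of the 184 (87.0%), beside 75.5% of all IDs, but 87.6% of the 589 IDs at ranks 401 to 1000 with the same ratio limit lay in this band too. Without the limit it held 80.0% of the 200. At least 1.5-fold higher values were found for 0 of the 184, where all IDs gave 4.45%. They were found for only 5 of the 589 IDs at ranks 401 to 1000, so their scarcity was not particular to the 184. At least 1.5-fold lower values were found for 10 of the 184 and 15 of those 589, where all IDs gave 3.43%. Under the same ratio limit, 236 of 10062 IDs were at least 1.5-fold lower, and without it 26 of the 200. Those 10 were 7 lens crystallins, the keratin krt92 and the unnamed NM_131108 and NM_001102644. An excess of the mutant of any size was seen in 59.0% of all IDs and in 65.8% of the 184. Without the ratio limit it was seen in 60.5% of the 200, close to the share of all IDs. The split depends on the scaling: with the trimmed mean of M-values (TMM), which lowers all log2 ratios by 0.05, 84 of the 184 were higher and 100 lower, and the median became -0.01. Of all 10175 IDs, 5105 were then higher and 5070 lower.

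**Figure D1:**
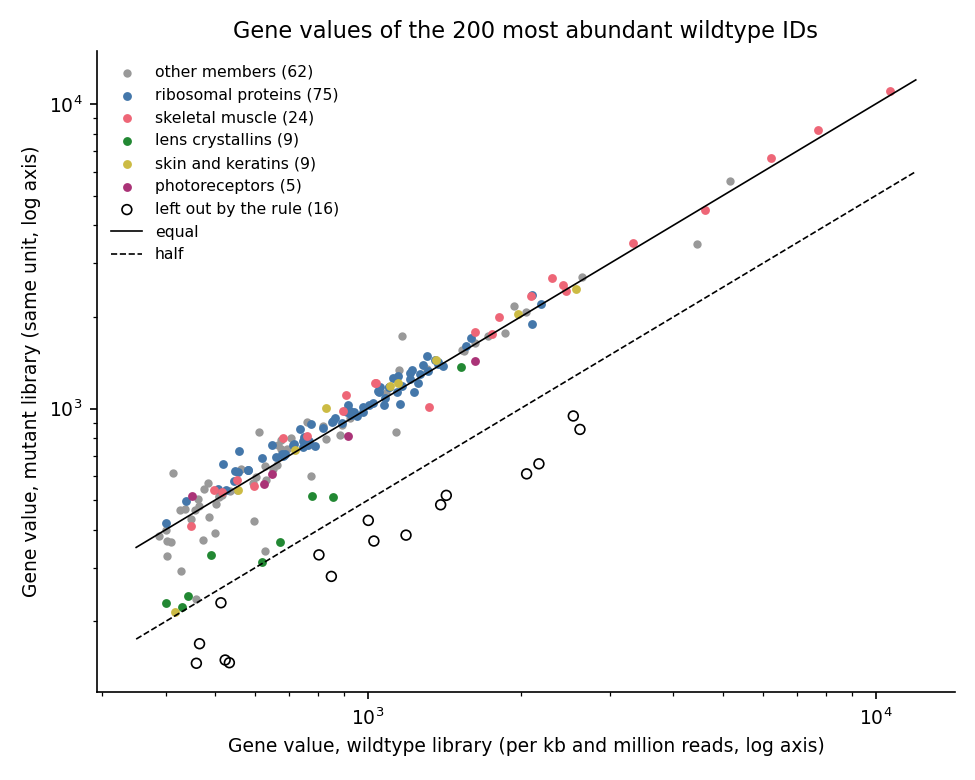
Wildtype gene value (horizontal, log axis) against mutant gene value (vertical, log axis) of the 200 most abundant wildtype IDs, each point 1 ID, coloured by gene group. Most of the 184 points lie along the line of equal values, the lens crystallins lie below it, and the 16 open circles of IDs left out lie below the dashed line at a ratio of 0.5.

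The ranks were much alike in the libraries. Of the 200 highest IDs in wildtype, 184 (92.0%) were also among the 200 highest in the mutant. Among the 184 transcripts described here, 175 were in the mutant's 200 highest. The 16 IDs that came in had mutant to wildtype ratios from 0.901 for the keratin krt8 to 1.32 for icn, a skin marker, and the list also held the cathepsin ctsla, the liver fatty acid binding protein fabp10a and the small GTPase ran.

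Just inside the rank limit were the ribosomal protein rps28 at 400.9, the lens crystallin crybb1l2 at 400.3 and mibp2 at 388. Just outside were krt8 at 388, the creatine synthesis enzyme gamt at 379 and the lens crystallin cryba1b at 379. Just above the ratio limit were the crystallin cryba1l1 at 0.505, the keratin krt92 at 0.517 and NM_131108 at 0.517. Below it were the crystallins crygm2d11 at 0.448 and crybb1 at 0.413. The 16 left out had ratios from 0.274 to 0.448, and 11 of them were on the exocrine pancreas list, among them the protease genes prss1, ela2l and cpa5.

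Genes were grouped by lists, and 164 of the 184 IDs were on a list. Ribosomal proteins were the largest group with 75 IDs, followed by skeletal muscle with 24. Cytoskeleton and housekeeping held 11, and translation factors, lens crystallins, skin and keratins, and mitochondrial energy held 9 each. Liver held 6, photoreceptors 5, and intestine, blood and immune cells, and neurons and glia held 2 each, while collagen, cartilage and bone held 1. Heart and exocrine pancreas lists had 0 members.

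**Figure D2:**
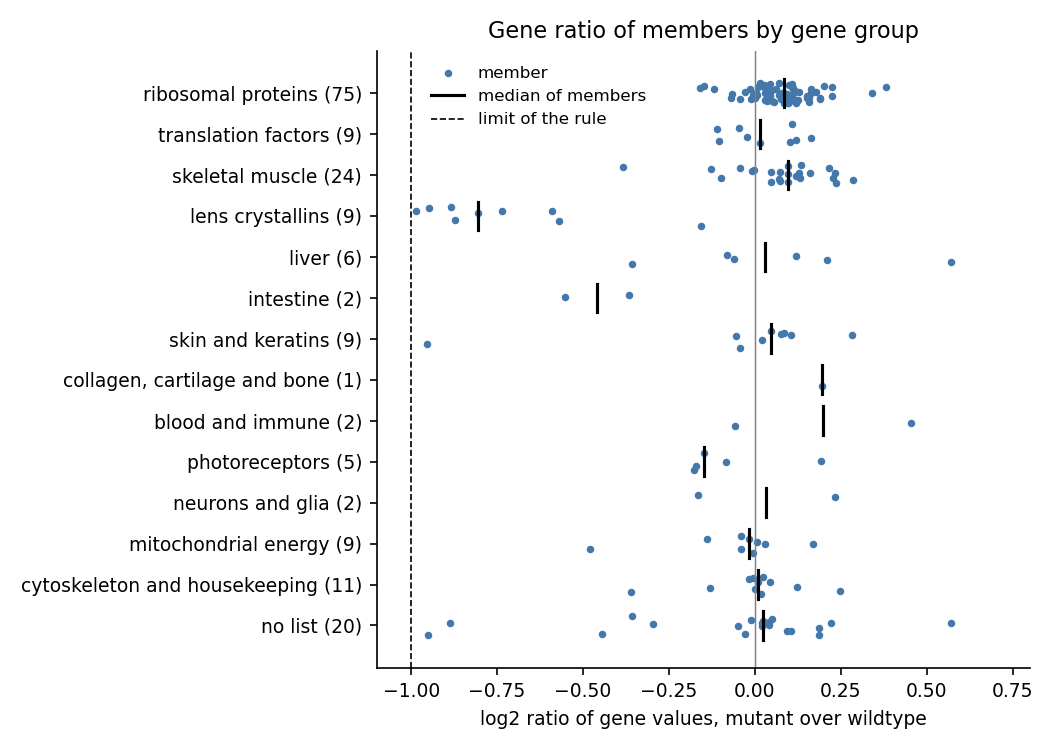
Log2 ratio of gene values, mutant over wildtype, for each of the 184 IDs by gene group, with the number of IDs in brackets, a vertical bar at each group's median and a dashed line at the limit of the rule. Lens crystallins sit between -0.99 and -0.16, with no ID above 0, whereas ribosomal proteins and skeletal muscle centre on 0.08 and 0.10.

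Ribosomal protein genes, which encode the protein part of the translation machinery, made up 18.0% of summed gene values in wildtype and 19.3% in the mutant. The mutant value was higher for 64 of 75, with a median log2 ratio of 0.08. Under TMM scaling 44 of 75 were higher and the median was 0.03. Large subunit proteins, 41 IDs with a median of 0.09, and small subunit proteins, 34 IDs with a median of 0.07, overlapped over most of their range.
The acidic stalk protein gene rplp1 was at 2192 in wildtype and 2197 in the mutant. Its partner in the stalk, rplp0, was at 2110 and 2354, with a recovered unique length of 83 bp. The small subunit gene rps8a was at 2105 and 1900, one of 11 ribosomal protein genes with a lower mutant value. The small subunit gene rps27.1, at 519 in wildtype and 657 in the mutant, had a ratio of 1.27 (1.23 to 1.305). The lowest ratio of the group was that of the large subunit gene rpl4, at 1155 and 1035, with 0.896 (0.882 to 0.910).

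Of the 9 translation factors, 5 had a higher mutant value, and the range of ratios was 0.927 to 1.12. The factor that carries aminoacyl-tRNA to the ribosome, eef1a1l1, was the most abundant of them at 5169 in wildtype and 5573 in the mutant. Next came tpt1 at 1938 and 2171, and the translocation factor eef2b at 1627 and 1645. The elongation factor subunit eef1g was at 880.1 and 819. Their median log2 ratio of 0.02 became -0.04 under TMM scaling.

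Skeletal muscle genes held 4 of the 5 highest wildtype values and 13.8% of the summed gene values in wildtype, against 14.9% in the mutant. The mutant value was higher for 18 of 24, or 16 of 24 under TMM scaling, with ratios from 0.766 to 1.22 and a median log2 ratio of 0.10. Among 61 less abundant IDs of the same list, 35 were higher and the median was 0.03.
The sarcomeric actin gene actc1b had the highest value of all, 10667 in wildtype and 11017 in the mutant. Parvalbumins, calcium buffers of fast muscle, came next, with pvalb2 at 7692 and 8225 and pvalb1 at 6233 and 6670. The recovered unique length was 28 bp for pvalb2 and 307 bp for pvalb1, and both gave a ratio of 1.07. The fast myosin light chains mylpfa, at 4615 and 4479, and mylz3, at 3329 and 3499, differed in direction.
Creatine kinases, which buffer ATP in muscle, were nearly level in both libraries: ckma was at 2452 and 2438 and ckmb at 2427 and 2548. The tropomyosin gene tpma was at 2309 and 2683 (recovered length 50 bp) and the troponin T gene tnnt3b at 1817 and 1994 for its more abundant ID. All 4 troponin IDs, with tnnc2.2 from outside the list, and all 3 myosin heavy chain IDs had ratios above 1 as deposited, but tnnc2.2 and myhz2 were below 1 under TMM scaling. The most abundant heavy chain ID was myhz1.1 at 2098 and 2343. The largest deficit in the group was that of the glycolytic enzyme gapdh, at 1319 and 1011, with a ratio of 0.766 (0.756 to 0.777).
Actins were on both sides, with 3 of 6 higher in the mutant. The muscle actins actc1a, with a ratio of 1.22 (1.04 to 1.43, recovered length 12 bp), and acta1b, with 1.18, were higher in the mutant. Another muscle actin, acta1a, was lower, at 596 in wildtype and 557 in the mutant, a ratio of 0.934 (0.917 to 0.952). The cytoskeletal beta-actin actb2 was at 4452 in wildtype and 3465 in the mutant, a ratio of 0.778 (0.773 to 0.784), whereas the other beta-actin, actb1, was at 892 and 881. Actin, keratin, myosin and gamma-M crystallin genes are close copies of one another, and how reads that fit several copies were assigned is not given in the sources used here, so single values of these families are uncertain.

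Lens crystallins, the transparent proteins that fill lens fibre cells, were the group with the lowest ratios. All 9 had a lower mutant value under each scaling tried, with ratios from 0.505 to 0.897 and a median log2 ratio of -0.81, and 7 were at least 1.5-fold lower. Their share of summed gene values was 1.52% in wildtype and 1.03% in the mutant. Of 31 other crystallin IDs with at least 20 recovered reads, including those left out by the ratio limit, all 31 were lower as well, and 30 were at least 1.5-fold lower, so that the rule cut through this family.
The most abundant, the gamma-M crystallin crygm2d3, was at 1528 in wildtype and 1370 in the mutant, with the highest ratio of the group, 0.897 (0.843 to 0.954, recovered length 52 bp). Others of its family were further apart, with crygm2d10 at 854 and 513, crygm2d7 at 776 and 515, and crygm2d8 at 672 and 364. The beta-type crystallins cryba1l1, at 619 and 312, and crybb1l2, at 400.3 and 229, had ratios of 0.505 and 0.572. The 7 gamma-M crystallins lie on chromosome 9, and their listed introns span, with those of NM_001102644, positions 23124812 to 23351484 (Zv9). That ID, which carries no symbol, was at 628 in wildtype and 340 in the mutant, and its ratio of 0.541 (0.507 to 0.577) is within the range of its neighbours. Ratios of crygm2d13 (0.518), crygm2d15 (0.547) and crygm2d2 (0.673) complete the cluster.

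Photoreceptor genes were represented by all 4 kinds of cone opsin and by gngt2b, a transducin subunit of cones. The UV opsin opn1sw1 was the most abundant at 1624 in wildtype and 1436 in the mutant. The red opsin opn1lw2 was at 913 and 812, the blue opsin opn1sw2 at 648 and 612, and the green opsin opn1mw1 at 625 and 564. All 4 opsins were lower in the mutant, with ratios from 0.884 to 0.943, whereas gngt2b was at 451 and 515, a ratio of 1.14 (1.11 to 1.18). These ratios lay closer to 1 than those of 8 of the 9 lens crystallins, a difference that was not tested.

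Liver genes were on both sides, and both intestine genes were lower in the mutant. Of 6 liver genes, 3 were higher in the mutant, with ratios from 0.780 to 1.48. Apolipoproteins, which carry lipids in plasma, were on both sides: apoa2 was at 1867 in wildtype and 1765 in the mutant, apoa1a at 1154 and 1336, and apoeb at 414 and 615. The ratio of apoeb, 1.48 (1.45 to 1.52), was the highest of the 184.
The retinol carrier rbp4 was at 676 and 735, the plasma selenium carrier selenop at 593 and 569, and the methyl transfer enzyme bhmt at 475 and 370. The intestine list held the apolipoproteins apoa4b.1, at 772 and 599, and apoa4b.2, at 430 and 293, with ratios of 0.776 (0.756 to 0.795) and 0.682 (0.649 to 0.717). Of 23 less abundant intestine IDs, 20 were lower. Of 44 liver IDs outside the 184, 31 were lower, with a median log2 ratio of -0.17. These 44 include what the ratio limit left out, so the rule cut through the liver list too. The apolipoproteins with the highest and the lowest ratio are neighbours: listed introns of apoa4b.1, apoa4b.2, apoeb and apoa2 lie within 65.8 kb on chromosome 16, from 26153407 to 26219229.

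Abundant keratins and other skin genes were mostly near level, with 6 of 9 higher in the mutant (4 of 9 under TMM scaling) and a median log2 ratio of 0.05. Among 37 less abundant IDs of the same list, 14 were higher and 23 lower, with a median of -0.07. The keratin krt4 was at 2569 in wildtype and 2471 in the mutant, cyt1 at 1978 and 2044, krt91 at 1363 and 1445, and krt5 at 1147 and 1210. Keratins form the intermediate filaments of epidermal cells. A run of 7 IDs on chromosome 19, with listed introns from 5963817 to 6004405, held both extremes of the group: krt1-19e at 826 and 1004, a ratio of 1.22 (1.199 to 1.23), and krt92 at 417 and 215, a ratio of 0.517 (0.4999 to 0.534). The unnamed NM_131108 was at 459 and 237, also 0.517, and its only listed intron with a gene value ends at the same position as that of krt92, so these values may share reads.

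The mitochondrial energy list had 3 of 9 IDs higher in the mutant as deposited and 1 of 9 under TMM scaling. The ADP/ATP carrier slc25a5 was at 2640 in wildtype and 2698 in the mutant. Subunits of ATP synthase were on both sides, with atp5f1b at 604 and 596 and atp5fa1 at 564 and 634. The malate dehydrogenase mdh1aa was the lowest, at 597 and 428, a ratio of 0.717 (0.702 to 0.732). It encodes the cytosolic form of the enzyme, although the list counts it here. Among 90 less abundant IDs of the list, 68 were higher, with a median log2 ratio of 0.12, so the abundant ones did not share the lean of the rest of their list; this difference was not tested.

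Among cytoskeleton and housekeeping genes, the chaperones hspa8, at 1726 in wildtype and 1725 in the mutant, and hsp90ab1, at 1550 and 1546, had ratios of 0.999 and 0.997. The nucleoside diphosphate kinase genes nme2b.2, at 2047 and 2082, and nme2b.1, at 759 and 901, had ratios of 1.02 and 1.19. The embryonic globin hbae3 was at 610.0 and 836, a ratio of 1.37 (1.33 to 1.41), the third highest, and the iron storage gene fth1a was at 827 and 795. Tubulin tubb4b was at 485 and 570, a ratio of 1.18, and marcksl1b was at 411 and 366. The bone and skin collagen col1a1a was at 475 and 544.

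The 20 IDs on no list included further muscle and translation genes. The troponin C gene tnnc2.2 was at 1534 in wildtype and 1558 in the mutant, and zgc:171772 at 1310 and 1348. The reticulon rtn3, a shaper of the endoplasmic reticulum, was at 1166 and 1730, a ratio of 1.48 (1.07 to 2.07), with recovered numbers of only 66 and 89 reads on 2 bp. The gelsolin relative scinla, at 1138 and 836, had a recovered length of 14 bp. Recovered unique lengths under 200 bp were found for 17 of the 184 IDs (9.24%) and for 1.90% of all IDs, and without those 17 the number at least 1.5-fold lower was 6 in place of 10.

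Listed introns of these transcripts were short and deeply covered. The table listed 914 introns with a gene value for the 184 IDs, from 1 to 44 per ID with a median of 4. Their median length was 394 bp, against 1451 bp over all listed introns, and 2.41% were longer than 5000 bp, against 11.9%. Only introns with at least 1 read in both libraries were listed, which short introns of weakly expressed genes reach less easily. The difference in length may thus come in part from the listing, and introns without reads were not compared. With at least 20 reads over both libraries, 819 introns (89.6%) of 181 IDs could be tested, beside 37.6% of all listed introns, so nearly all of them passed the minimum here and most others did not. The 3 IDs without a tested intron were rtn3, scinla and the mitochondrial subunit gene ndufa4a. Tested introns of the 184 IDs held 31.8% of all tested intronic reads of the wildtype library and 31.3% of those of the mutant.

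The retention coefficient is the read density of an intron divided by the value of its gene. For the 819 introns it had a median of 0.0172 in the wildtype library and of 0.0178 in the mutant one, beside 0.0328 and 0.0337 over 19404 other tested introns. As intron read density (RPuKM, an RPKM over unique sequence) the order was the reverse: 15.0 and 16.3 for these introns, and 0.474 and 0.497 for the others. The coefficient divides by the gene value that chose the IDs, so its low level here is in part a product of the rule. Across 6799 genes, gene value and median coefficient had a Spearman rho of -0.34, and gene value and median intron RPuKM 0.49. Within the 181 IDs these were -0.07 and 0.23, and all of these measures share the same libraries.

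Short introns had the highest coefficients. Introns of up to 150 bp, 273 of the 819, had a median wildtype coefficient of 0.0826, those of 151 to 1000 bp 0.0184, and longer ones 0.00414. Their median wildtype reads were 200, 139 and 135. Other tested introns had 0.307, 0.0805 and 0.0205, but with median reads of 19, 20 and 21, close to the minimum of 20 over both libraries. A short intron at so few reads passes only with a high density, so the levels of the others are largely set by that minimum and are not compared. A coefficient above 0.1 was found for 19.5% of introns of the 184 IDs and for 25.0% of others, sets that differ in length. From the shortest class to the longest the shares were 44.7%, 13.8% and 0.361% for the 184 IDs. For others they were 87.0%, 42.4% and 7.98%, under the same limit of the read minimum. By gene group, the median wildtype coefficient was highest for skin and keratins at 0.117 and photoreceptors at 0.0817. It was 0.0332 for lens crystallins, 0.0253 for skeletal muscle and 0.0133 for ribosomal proteins. Median intron lengths ran in nearly the opposite order, at 97.5, 93, 127, 280.0 and 639 bp, and groups were not compared at matched length.

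**Figure D3:**
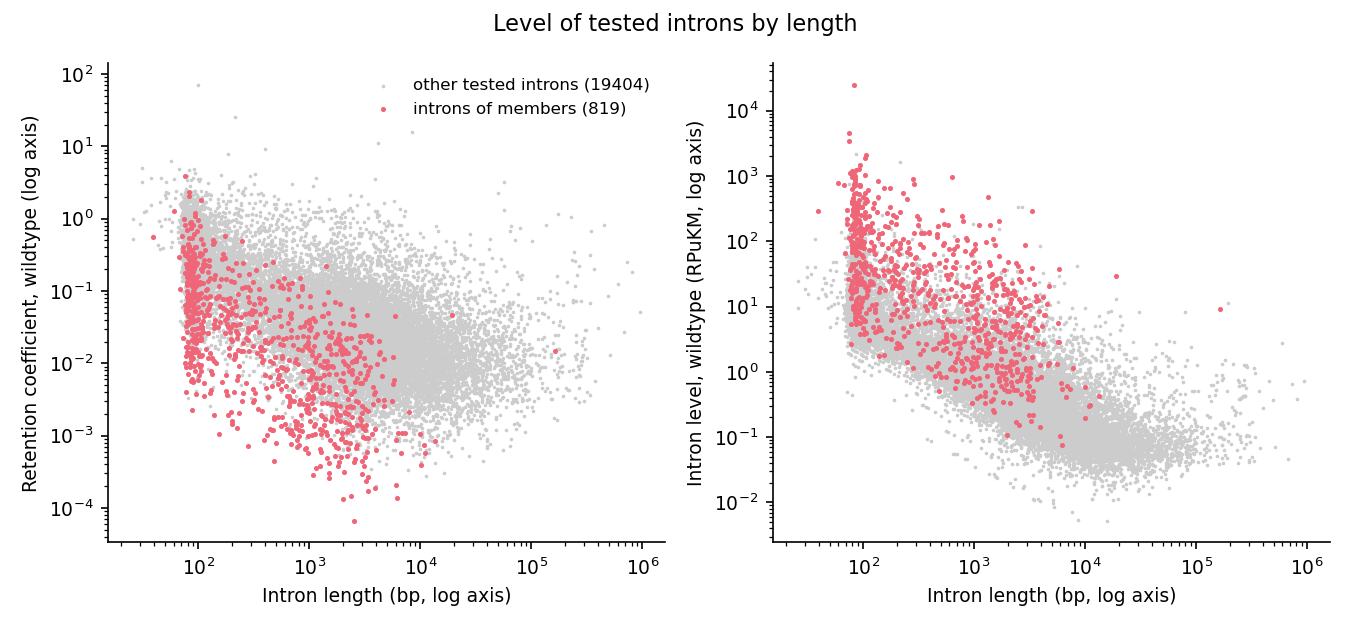
Wildtype retention coefficient (left, log axis) and intron read density in RPuKM (right, log axis) of tested introns against intron length (log axis), with 819 introns of the 184 IDs in red and 19404 others in grey. Both measures of the red points fall with length, and the lower edge of the grey points is set by the minimum of 20 reads.

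Introns of 1 gene differed far more than libraries did. In 168 IDs with at least 2 tested introns, the highest wildtype coefficient was a median 28.9 times the lowest, over 10 times in 125 IDs and over 100 times in 45. The intron with the highest coefficient was the same in the mutant in 157 of 168 IDs, and it was the shortest tested intron of its gene in 102. The widest span was in the large subunit gene rpl9 on chromosome 1. There an intron of 84 bp had a coefficient of 0.885 in wildtype and 0.768 in the mutant. One of 1994 bp had 0.000132 and 0.000344, from only 6 reads in wildtype, so the size of this span is uncertain.

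The highest coefficients belonged to muscle, ribosomal, keratin and globin genes. An intron of the myosin heavy chain myhz1.2 (chromosome 5, 33921353 to 33921427, Zv9) had 3.87 in wildtype and 4.65 in the mutant, from only 25 bp of unique sequence. A coefficient above 1 means more reads per base in the intron than in the exons. An intron of actc1b (chromosome 17, 759437 to 759518) had 2.34 and 1.80, from 51626 and 37309 reads. Its retention in the mutant was 0.770 of wildtype (0.760 to 0.781, Benjamini-Hochberg adjusted p = 4.5e-281, Fisher's exact test), which is under the 2-fold limit of a call, while the other 6 tested introns of the gene lay between 0.875 and 1.14.
An intron of rps27.1 had 2.07 and 1.73, of krt5 1.84 and 1.80, of hbae3 1.28 and 1.26, and of rpl3 1.19 and 1.248. Below these were crygm2d8 with 1.1001 and 0.785, mylpfa with 0.991 and 1.12, the adenylate kinase ak1 with 0.951 and 0.898, and a second intron of myhz1.2 with 0.892 and 0.813, from 10 bp of unique sequence. All 10 introns were no longer than 106 bp. The crygm2d8 intron lies inside an intron of NM_001102644 that covers 163848 bp and the listed introns of 11 other IDs, so its reads cannot be given to 1 gene. Which strand was counted is not given in the sources used here.

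Retention changed in few introns. Of the 819, 7 were called higher in the mutant library (0.855%), beside 2.92% of all 20223 tested introns, and 4 were called lower (0.488%), beside 1.46%. A call required, in Fisher's exact test, a p under 0.05 after Benjamini-Hochberg correction over the whole table, and at least a 2-fold change of intronic reads relative to gene reads. With library totals as the denominator 9 of the 819 were higher, where all introns gave 3.89%, and 13 lower, where all gave 2.47%. Of these 13, 7 were introns of lens crystallins, whose gene values were lower too. At an unadjusted p under 0.05 with the same 2-fold limit, 13 of the 819 were higher and 10 lower, beside 1320 and 971 of all 20223. The median log2 retention ratio was 0.03 (0.01 to 0.06) with quartiles of -0.18 and 0.23, and 0.03 over other introns with quartiles of -0.39 and 0.44. At 500 reads or more the quartiles were close, -0.13 and 0.17 for 329 introns of the 184 IDs and -0.14 and 0.20 for 544 others.
The introns of abundant genes had more reads, a median of 157 in wildtype against 21 for others. At 100 reads or more over both libraries, 3 of 603 were called higher (0.498%) and 1 lower (0.166%), and of 3591 other introns 109 (3.04%) and 29 (0.808%). The share called stayed below that of other introns at the same minimums, but these did not match depth. Median wildtype reads were 309 for introns of the 184 IDs and 94 for others at 100 reads, and 689 and 467 at 500. Lengths were not matched either, and whether these shares differ was not tested.

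**Figure D4:**
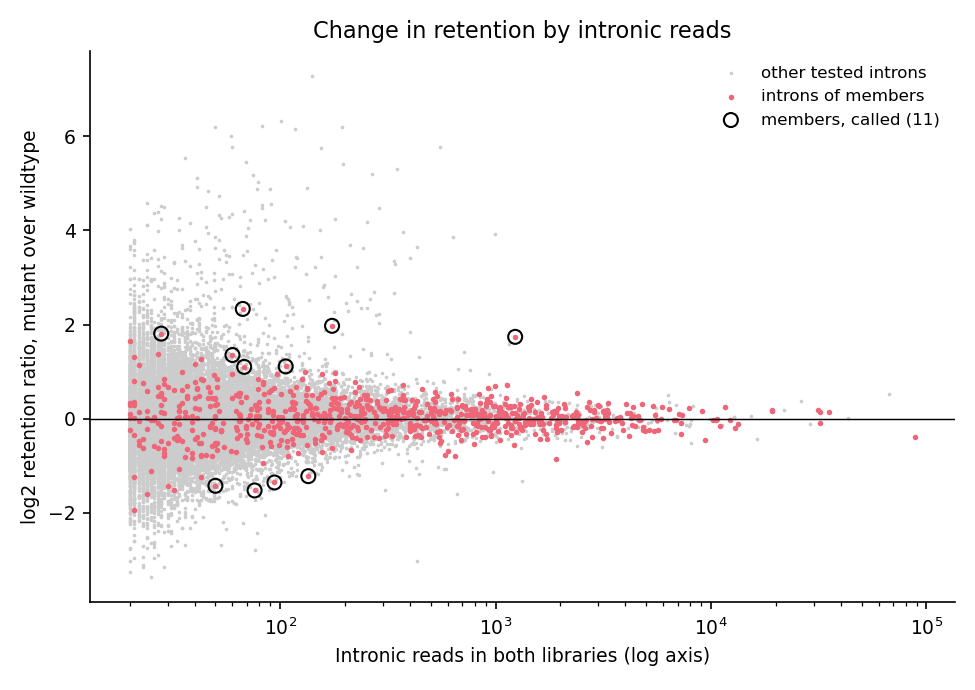
Log2 retention ratio, mutant over wildtype, of tested introns against intronic reads in both libraries (log axis), with introns of the 184 IDs in red, others in grey and the 11 called introns of the 184 IDs circled. The spread narrows with reads, and rpl4 at 1.74 is the circled point with the most reads.

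Summed over the tested introns of a gene, retention was close to level for nearly all. Of 179 IDs with at least 100 summed reads, 159 (88.8%) had a ratio between 0.8 and 1.25, beside 67.2% of 3400 other genes, whose median of 136 summed wildtype reads was far below the 907 here. At least 1.5-fold more was found for 3 IDs, where all such genes gave 7.43%, and at least 1.5-fold less for 0, where all gave 3.32%. The 3, chosen after their values were seen, were crygm2d2 with 1.59 (1.22 to 2.08), apoa2 with 1.55 (1.15 to 2.09) and rpl35 with 1.501 (1.19 to 1.90). The crygm2d2 sum was 1 intron whose counts were nearly level, 118 (wildtype) and 115 (mutant). Its excess thus came mainly from the gene value, with a ratio of 0.673. That intron also lies within the span of the listed introns of NM_001102644, so its reads may be shared. For apoa2 and rpl35 the counts themselves rose, from 82 to 109 and from 123 to 180.

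Splice sites were not read, so the called introns were not sorted into U12-type and other introns. Of the 7 introns called higher, 3 were in large subunit ribosomal protein genes. Ribosomal protein genes held 309 of the 819 tested introns. The share of those 309 called higher, 0.971%, was near the 0.855% of all 819. The rpl4 intron at 19233819 to 19235331 on chromosome 18 (Zv9, minus strand) was covered by 331 wildtype and 901 mutant reads. Relative to gene reads this was 3.35-fold higher (2.95 to 3.81, Benjamini-Hochberg adjusted p = 1.2e-84, Fisher's exact test), while the other 8 tested introns of rpl4 lay between 0.819 and 1.28.
The rpl38 intron at 40101041 to 40102643 on chromosome 12 had 34 and 140 reads and was 3.97-fold higher (2.72 to 5.97, adjusted p = 1.3e-12 by the same exact test), with its other 3 introns between 0.856 and 1.16. The rpl35 intron at 5739006 to 5742940 on chromosome 21 had 11 and 56 reads and was 5.22-fold higher (2.71 to 11.1, adjusted p = 1.0e-06, exact test), and its only other tested intron had a ratio of 1.14. In each of the 3 genes 1 intron was called and no other, and the coefficients of these introns in the mutant were at most 0.0239.

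The other 4 calls were in 4 further genes. In the calcium pump gene atp2a1l, an intron at 14360002 to 14360140 on chromosome 12 had 19 and 41 reads, 2.59-fold higher (1.47 to 4.73, adjusted p = 0.011, exact test). In myhz1.1 an intron at 33946549 to 33946677 on chromosome 5 had 33 and 73 reads, 2.18-fold higher (1.43 to 3.40, adjusted p = 0.0050, exact test).
In eef1g an intron at 27728859 to 27729659 on chromosome 14 had 24 and 44 reads, 2.17-fold higher (1.29 to 3.73, adjusted p = 0.039, exact test), and it was not called with library totals as the denominator. The retinol carrier gene rbp4 held introns called in both directions: the one at 5737836 to 5737913 on chromosome 12 had 6 and 22 reads, 3.71-fold higher (1.46 to 11.2, adjusted p = 0.039, exact test), and the one at 5738428 to 5741468 had 68 and 26 reads.

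The lower calls were that second rbp4 intron, with a ratio of 0.387 (0.236 to 0.616, adjusted p = 9.4e-04, exact test), and introns of a chaperone, a ribosomal protein and an elongation factor gene. The hspa8 intron at 30757340 to 30758084 on chromosome 10 had 58 and 18 reads, a ratio of 0.342 (0.190 to 0.589, adjusted p = 0.0013, exact test).
The rpl5b intron at 28803713 to 28810418 on chromosome 6 had 37 and 13 reads, a ratio of 0.364 (0.178 to 0.701, adjusted p = 0.023, exact test). The eef2b intron at 56959942 to 56961199 on chromosome 2 had 97 and 38 reads, a ratio of 0.427 (0.285 to 0.627, adjusted p = 2.5e-04, exact test). Its other 11 tested introns lay between 0.835 and 1.41. None of the 11 called introns was overlapped by a listed intron of another ID.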

How the data were processed

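Whole read counts per intron and library were deposited by the authors without normalization, for introns of RefSeq gene models with at least 1 read in both libraries. Per the file headers, RPuKM levels (RPKM over the unique part of an intron) were given by the authors as well, with log2 values and fold or ratio columns; the log2 and fold columns were not used. The gene value was deposited without a unit. Whole reads and unique exonic lengths were recovered from the gene values (100% within 1e-06 bp). In simulated data for 2000 genes this gave the true read number for 82.9%, and one too low by a common factor for 17.2%. Zv9 is named in the submitters' processing notes. The aligner, the counter and the strand setting were not given in the sources used here. Symbols matched 95.8% of IDs in the RefSeq table of GRCz12tu, used for names only, and start positions were raised by 1 to count from 1.

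An intron was compared if its gene had a value and the libraries together gave it at least 20 reads, by two-sided Fisher's exact test of intronic and gene reads, with Benjamini-Hochberg adjustment over all 20223, and log2 ratios used a pseudocount of 0.5. The procedure was tested on simulated data. Ratio intervals are exact (Clopper-Pearson, 95%), and those of medians come from order statistics. TMM factors came from edgeR 4.0.16 (R 4.3.3); the rest was done in Python 3.11.15 with pandas 2.3.3, numpy 2.4.6, scipy 1.17.1 and matplotlib 3.10.9. Introns listed under several IDs have no gene value; each of their counts was divided by how many IDs shared it.

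Members, gene lists and tests were chosen with earlier results of these data known. Named were the 20 highest members, the 10 highest and 10 lowest ratios, 3 IDs either side of each limit, called introns, the 10 highest coefficients and up to 4 members per group, of which 2 genes are not reported here; others were chosen after their values were seen, as was the grouping of neighbours within 100 kb.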

Additional observations from a re-analysis of the deposited data

How the results depend on the processing

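No paired analysis was possible because each genotype had 1 library and the labels give no replicate numbers. The median log2 gene ratio of 0.04 became -0.0073 with TMM and -0.0090 with median-of-ratios scaling, which lower all log2 ratios alike, and the TMM medians of ribosomal proteins and skeletal muscle were 0.033 and 0.045. Of the 90 IDs of the top 100 above the ratio limit, 65 were higher and 1 was at least 1.5-fold lower. Of their 425 tested introns, 3 were called higher and 2 lower, beside 2.92% and 1.46% of all tested introns. Of the 370 such IDs of the top 400, 194 were higher, 1 was at least 1.5-fold higher and 31 lower, and the median was 0.012. For the top 400, 20 of 1632 tested introns were called higher and 10 lower. With all 200 IDs kept, 26 were at least 1.5-fold lower. Without IDs under 200 bp of unique length, an alternative added after seeing the data, 6 were. With library totals as the denominator, which does not divide out changes of the gene value, 13 introns were called lower, 7 of them in lens crystallins. The median intron log2 ratio was then 0.062. Median coefficients were 0.0235 and 0.0256 at a minimum of 50 reads, and 0.0136 and 0.0141 with none, as the minimum selects introns by reads. With all 200 IDs, 7 of 912 introns were called higher and 6 lower, and without IDs of short unique length 6 and 4 of 776. At a minimum of 50 reads 6 and 4 of 701 were called, where all introns gave 306 and 133 of 8454. Without a minimum 5 and 3 of 914 were called, where all gave 500 and 197 of 53767. The planned search of promoters was not run, since no promoter sequences were used here. Depth limits single introns with few reads, and the lack of a second pool limits every value.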

Other observations

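Introns listed under several IDs had no gene value and stood outside the comparisons above. Among 596 introns without a gene value and with at least 20 reads, 41 were listed under several IDs and belonged to 13 of the 184 abundant IDs. Scaled by library total, their mutant to wildtype ratios ran from 0.376 to 1.59 with a median of 1.08. By Fisher's exact test with Benjamini-Hochberg adjustment, 0 of the 41 were called higher and 2 lower, beside 17 and 21 of all 596. Both lower introns were shared by the keratin krt92 and NM_131108 on chromosome 19 (Zv9). The intron at 5975375 to 5975453 had 281 reads in wildtype and 96 in the mutant, a ratio of 0.376 (0.295 to 0.476), and the one at 5975537 to 5975704 had 82 and 33 reads, a ratio of 0.443 (0.286 to 0.671). The gene values of both IDs had a ratio of 0.517. The highest ratio was that of an intron of naca, a factor that binds nascent chains, with 29 and 42 reads and 1.59 (0.970 to 2.65), an interval that spans 1.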
